A study of Rattus norvegicus with 8 samples.

Results

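Autophagy and lysosome genes were examined in cultured rat cells of the nucleus pulposus, the soft centre of an intervertebral disc. Members were the genes of the deposited table whose Gene Ontology (GO) annotation holds a term containing autophag or lysosom, which 126 genes met. Solute carriers, genes with a cell division or mitotic term and 3 more named genes, 17 in all, were left out, so that 109 of 4226 genes were members. Of these, 102 were protein-coding and 7 were long noncoding RNAs, 8 had no gene name and 4 had a locus name only. The rule used annotation and gene names and no measured value, but it was chosen with earlier results of these data known.

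In every library SOD1, which encodes a superoxide dismutase of the cytosol, was knocked down, and the cells were kept for 7 days with 10 mM lactate. One group was transfected with wild-type SOD1 (SOD1-WT, genotype label WT, 4 libraries) and the other with SOD1 carrying the lysine-to-arginine substitution K123R (SOD1-K123R, 4 libraries), and the comparison asks what the substitution changes. The table heads the first group Ctrl and the second L, a letter no label explains, so that if it referred to lactate the contrast would not be the substitution alone. Nothing in the labels says that replicates were separate cultures, in which case p-values measure only how far these samples spread, which may be technical. Library identifiers run in 1 unbroken series within each group, so that handling and group cannot be told apart. Sod1 was not analysed here. In bulk RNA, fewer cells of a type and less RNA per cell also cannot be told apart.

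Values are TPM (transcript abundance scaled for length and to a fixed total). The table is part of a transcriptome: out of a full total of 1000000 TPM, SOD1-WT columns held 192667 ± 5262.5 and SOD1-K123R columns held 239759.9 ± 3335.7 (mean with SD over 4 libraries, as for all values with ± here), and the read depth behind them is unknown. Genes close to a fold of 1 are scarce in it, and no source used here says how its rows were chosen. Shares of members that changed are therefore read only against the same share of all genes tested. Fold changes are log2(TPM + 1) in SOD1-K123R minus SOD1-WT, with the standard error (SE) from limma. Passing means an adjusted p (Benjamini-Hochberg) under 0.05 among the 2890 genes whose mean reached 1 TPM. Some members, such as Rragd, RragB, Rilp and Fez1, reached it only through the group where they were higher. If the rows were chosen by this same contrast, passing was largely fixed in advance and the adjusted p-values would be too small.

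Autophagy encloses cytoplasm in a double membrane, the autophagosome, which fuses with the lysosome, where acid hydrolases degrade the cargo. It is started by the ULK1 kinase and a lipid kinase complex, extended by ubiquitin-like conjugation of ATG8 proteins, and held back by the kinase complex mTORC1, which sits on the lysosome and senses amino acids. The transcription factor TFEB, kept in the cytoplasm by mTORC1, activates many lysosome and autophagy genes. Nucleus pulposus cells live without blood supply, and autophagy has been studied in them as a response to low nutrients and acid.

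Of the 97 members tested, 63 rose, 32 fell and 2 did not pass in SOD1-K123R. That is 64.9% higher and 33.0% lower, where 44.6% and 51.1% of all genes tested were higher and lower. In either direction 95.7% of all genes tested passed, so passing alone does not set a member apart. At least 2-fold changes were found for 28 members upward and 27 downward, beside 26.0% and 35.8% of all genes. The groups did not overlap for 94 members (96.9%), against 91.4% of all genes; after quantile normalization these were 86 members (88.7%) and 87.7% of all genes. The median log2 fold change was 0.71 over members and -0.49 over all genes tested, a distance of 1.20. Median-of-ratios scaling moved all genes by a median of 0.42 and quantile normalization by 0.20, and the distance was then 1.18 and 0.93.

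The summed level of all members was 7832, 7732, 7467 and 7424 TPM in SOD1-WT replicates 1 to 4 and 11340.4, 10966, 11415 and 11761 in SOD1-K123R. The groups did not overlap, but neither did the sums of the whole table given above, which were also higher in SOD1-K123R. Cd63, Ctsb and Sqstm1 were the 3 members with the highest mean TPM, and the calls of Cd63 and Ctsb ended after quantile normalization. All 6 initiation genes, all 3 conjugation genes and all 3 transcription factors tested rose, while 5 of 7 genes of fusion and trafficking fell, and the lysosomal membrane genes were divided equally, 4 higher and 4 lower. Beside the 44.6% higher and 51.1% lower of all genes, these counts are small. Most listed genes of each role had no row in the table, so the counts cover only a part of each step. Initiation listed 29 genes (7 members in the table), conjugation 19 (3) and transcription factors 31 (3). Fusion and trafficking listed 77 (7) and the lysosomal membrane 77 (8). Genes of the same lists without a matching GO term followed the members only in part. Of these, 3 of 4 in fusion and trafficking and 3 of 3 in the lysosomal membrane rose. The 1 conjugation gene fell, 5 of 6 transcription factors rose, and initiation had 0 such genes. For members, the counts of the roles named here were the same after median-of-ratios scaling. They were also the same after quantile normalization, except for the membrane genes, of which 3 rose, 4 fell and 1 did not pass. Of the lysosomal enzymes, 6 rose and 2 fell, and after quantile normalization 4 rose, 2 fell and 2 did not pass.

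**Figure D1:**
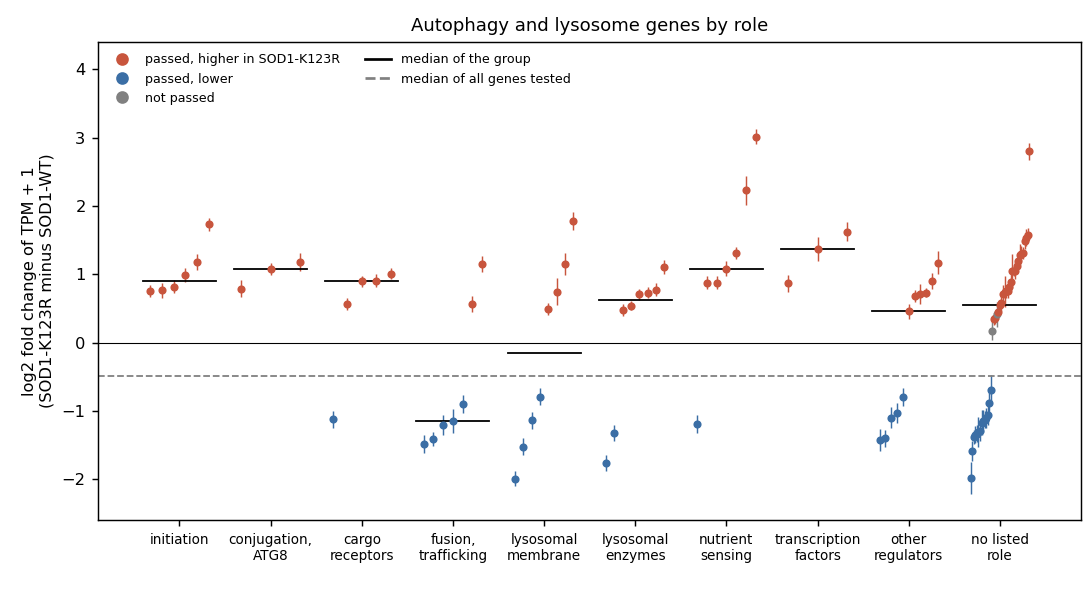
Log2 fold change of TPM + 1 (SOD1-K123R minus SOD1-WT, vertical axis) of the 97 members tested, by role; points are genes, bars are limma standard errors, black lines are medians of each role and the dashed line is the median of all genes tested (-0.49). Initiation, conjugation and transcription factor genes all lie above 0, and the median of fusion and trafficking genes is -1.15.

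Among transcription factors, Tfeb, the factor described above, read 5.95, 5.0, 2.98 and 6.14 TPM in SOD1-WT replicates 1 to 4 and 12.3, 13.4, 14.4 and 16.7 in SOD1-K123R, a log2 fold change of 1.37 (SE 0.18, adjusted p 9.16e-06). Foxk1, a forkhead factor known to repress autophagy genes, read 6.54, 7.14, 4.67 and 7.6 TPM and 24.1, 19.4, 22.3 and 21.5, a log2 fold change of 1.62 (SE 0.14). Foxo1, a forkhead factor that activates them, read 4.53, 4.67, 4.74 and 3.92 TPM and 9.8, 9.88, 8.66 and 7.6, a log2 fold change of 0.87 (SE 0.12). An activator of autophagy and a repressor of it thus both rose, and for all 3 every SOD1-K123R library lay above every SOD1-WT library. Among 6 further factors of the pathway that were tested but hold no matching GO term, 5 rose and 1, E2f1, fell. Foxo3, another activating forkhead factor, rose from 8.46 ± 1.39 to 21.8 ± 1.3 TPM, and Nfe2l2, which encodes NRF2 and acts on Sqstm1, rose by a log2 fold change of 0.83. Atf4, Cebpb and Ddit3, factors of stress responses that also act on autophagy genes, were the others that rose.

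TFEB binds the CLEAR element, which is built around the E-box CACGTG. In RefSeq promoter windows (GRCr8, 250 bases before to 50 after a gene's start), 84 of 109 members had an entry by symbol. At 77.1%, under the 80% set for a comparison of members with all genes, that comparison is void, and the matches are a description. CACGTG, which reads the same on both strands, occurred in 14 of the 84, counting both windows where a gene has more than 1, and in 6.42% of all 33469 windows. The longer core TCACGTGA, which contains the E-box, occurred in 2, Ctsd and Snap29, and in 0.777% of all windows. TGATGNAA, the core of the amino acid response element bound by ATF4, occurred on either strand in 3 members, Trib3, Bcl2 and LOC100360087, and in 3.98% of all windows. E-boxes were found in 8 members that rose and 4 that fell, among 54 and 24 with a window. The following 6 windows are shown because they carry these letters in members whose changes went both ways: Ctsd, Snap29, Fnip1, Atg14 and Tmem175 for the E-box and Trib3 for the amino acid response element, which lies there on the other strand. They are written 5′ to 3′ in the direction of the gene, with the matched letters in capitals.

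Ctsd (chr1:206968772-206969071, minus strand): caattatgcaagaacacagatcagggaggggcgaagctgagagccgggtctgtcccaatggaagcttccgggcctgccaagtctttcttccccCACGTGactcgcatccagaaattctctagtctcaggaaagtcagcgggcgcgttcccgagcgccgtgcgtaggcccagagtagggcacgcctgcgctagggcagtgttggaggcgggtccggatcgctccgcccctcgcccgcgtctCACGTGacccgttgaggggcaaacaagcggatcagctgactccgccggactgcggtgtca
Snap29 (chr11:97113146-97113445, minus strand): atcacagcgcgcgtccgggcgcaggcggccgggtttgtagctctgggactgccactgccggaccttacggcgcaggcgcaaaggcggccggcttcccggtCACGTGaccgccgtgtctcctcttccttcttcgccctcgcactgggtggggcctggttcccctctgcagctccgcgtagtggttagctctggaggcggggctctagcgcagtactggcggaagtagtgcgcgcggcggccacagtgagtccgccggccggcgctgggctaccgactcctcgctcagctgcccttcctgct
Fnip1 (chr10:39068214-39068513, plus strand): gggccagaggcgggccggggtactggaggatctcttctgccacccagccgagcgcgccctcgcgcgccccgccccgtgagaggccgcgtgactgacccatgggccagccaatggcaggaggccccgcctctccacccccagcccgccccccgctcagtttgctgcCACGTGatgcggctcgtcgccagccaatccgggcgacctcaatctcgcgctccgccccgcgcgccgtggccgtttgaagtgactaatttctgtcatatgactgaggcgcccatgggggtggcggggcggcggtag
Atg14 (chr15:23306766-23307065, minus strand): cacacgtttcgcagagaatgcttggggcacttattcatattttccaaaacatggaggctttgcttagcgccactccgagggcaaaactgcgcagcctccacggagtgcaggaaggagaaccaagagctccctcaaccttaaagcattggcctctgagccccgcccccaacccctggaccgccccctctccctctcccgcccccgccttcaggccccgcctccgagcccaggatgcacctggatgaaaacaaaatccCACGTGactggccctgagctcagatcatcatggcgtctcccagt
Tmem175 (chr14:1233969-1234268, minus strand): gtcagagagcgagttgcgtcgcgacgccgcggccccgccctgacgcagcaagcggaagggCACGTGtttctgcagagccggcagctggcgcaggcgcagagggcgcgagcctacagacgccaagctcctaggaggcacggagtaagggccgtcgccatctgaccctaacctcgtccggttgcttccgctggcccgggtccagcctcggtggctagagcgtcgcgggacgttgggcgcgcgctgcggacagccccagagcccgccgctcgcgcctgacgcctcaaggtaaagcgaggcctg
Trib3 (chr3:161275484-161275783, minus strand): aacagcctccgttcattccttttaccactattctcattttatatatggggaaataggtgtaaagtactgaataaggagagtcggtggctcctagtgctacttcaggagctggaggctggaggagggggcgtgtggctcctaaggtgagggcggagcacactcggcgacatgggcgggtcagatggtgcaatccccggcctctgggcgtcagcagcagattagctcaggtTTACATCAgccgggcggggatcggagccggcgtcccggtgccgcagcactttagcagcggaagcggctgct

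Ctsd has the E-box in 2 places of its window. Of the genes shown for the E-box, Ctsd, Fnip1 and Atg14 rose and Snap29 and Tmem175 fell. Trib3, shown for the amino acid response element, rose. The windows were picked to cover both directions, so no conclusion is drawn from these directions.

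Of 7 members tested in nutrient and energy sensing, 6 rose and 1 fell. Rragd encodes RagD, a small GTPase that recruits mTORC1 to the lysosome. It read 0.17, 0.17, 0.08 and 0.15 TPM in SOD1-WT replicates 1 to 4 and 8.49, 8.09, 7.32 and 9.05 in SOD1-K123R, a log2 fold change of 3.01 (SE 0.11, adjusted p 3.41e-10). The gene was thus near 0 in SOD1-WT and low but present in SOD1-K123R, and its log2 fold change depends on the pseudocount, being 5.12 with a pseudocount of 0.1. Its relative RragB, the only member of this role that fell, read 1.84, 2.46, 3.32 and 2.14 TPM and 0.56, 0.51, 0.42 and 0.46 (log2 fold change -1.19, SE 0.14, and -2.09 with a pseudocount of 0.1). The 2 Rag GTPase genes in the table moved in opposite directions. Their groups did not overlap, as was so for 91.4% of all genes tested. Both reached the filter of 1 TPM only through their higher group. The mean of the other group was 0.14 TPM for Rragd (SOD1-WT) and 0.49 TPM for RragB (SOD1-K123R). At that level in both groups neither would have been tested.

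Fnip1, a partner of folliculin in the complex that acts on RagC and RagD, read 3.74, 4.56, 7.12 and 3.83 TPM in SOD1-WT and 34.9, 30.9, 21.9 and 17.9 in SOD1-K123R, a log2 fold change of 2.23 (SE 0.22). Libraries of SOD1-K123R were far apart for this gene, and the lowest was still above every SOD1-WT library. Flcn, folliculin itself, rose from 11.9 ± 0.668 to 22.8 ± 2.0 TPM. Fnip2, the paralog of Fnip1, holds no matching GO term and read 2.42, 2.82, 3.25 and 3.09 TPM and 27.4, 22.2, 20.7 and 22.8 (log2 fold change 2.64, SE 0.12). All 3 genes of the folliculin complex were therefore higher in SOD1-K123R.

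Among inhibitors upstream of mTORC1, Sesn2, a stress-induced leucine sensor, read 14.4, 13.7, 15.7 and 14.9 TPM and 41.2, 35.6, 39.1 and 35.5 (log2 fold change 1.31, SE 0.09). Tsc1, a subunit of the complex that switches off the mTORC1 activator Rheb, read 5.24, 5.67, 6.09 and 5.56 TPM and 13.9, 14.2, 11.7 and 12.3 (log2 fold change 1.08, SE 0.11). Stk11, which encodes LKB1, the kinase that activates AMPK, rose from 36.5 ± 3.0 to 67.8 ± 6.24 TPM. The groups were separate for each of them, and the largest of these changes was that of Sesn2.

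Of 9 further sensing genes without a matching term, 5 rose and 4 fell. Mtor, the kinase of mTORC1, read 15.7, 15.8, 16.8 and 19 TPM in SOD1-WT and 4.63, 4.61, 4.07 and 4.56 in SOD1-K123R (log2 fold change -1.70, SE 0.11, adjusted p 1.60e-08). Mlst8, a further subunit of the complex, fell from 9.36 ± 0.987 to 2.54 ± 0.524 TPM, Telo2, which assembles it, from 9.53 ± 0.971 to 3.13 ± 0.557 TPM, and Rps6kb1, its substrate S6 kinase, from 22.8 ± 5.2 to 9.46 ± 2.26 TPM. The kinase, the subunit, the assembly factor and the substrate thus all fell. The 5 that rose were Ddit4, Fnip2, Irs2, Castor1 and Ddit4l. Ddit4, which encodes REDD1, a stress-induced inhibitor of mTORC1, read 15.9, 21, 19 and 17.3 TPM and 116, 125, 120.1 and 124, a log2 fold change of 2.67 (SE 0.09).

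**Figure D2:**
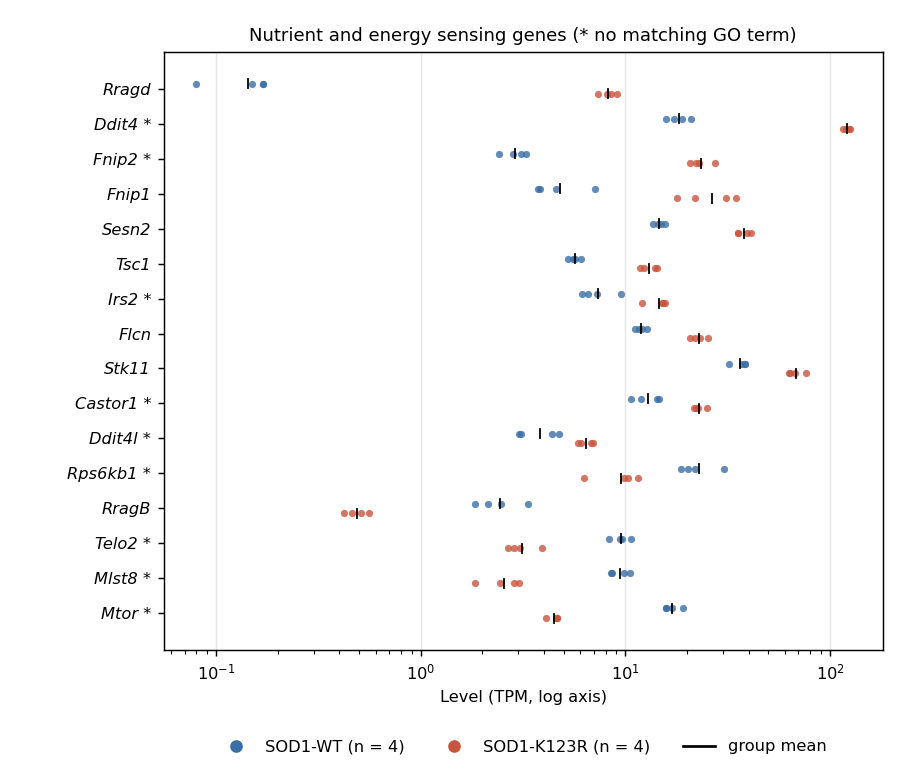
Level (TPM, horizontal log axis) of the 16 nutrient and energy sensing genes tested, ordered by log2 fold change; points are libraries (4 per group), vertical ticks are group means, and an asterisk marks a gene without a matching GO term. Rragd, Ddit4 and Fnip2 at the top were higher and Mtor, Mlst8 and Telo2 at the bottom lower in every SOD1-K123R library.

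Of 7 members in autophagosome initiation, 6 passed the filter on low values and all 6 rose, by log2 fold changes of 0.76 to 1.73. Zfyve1, which marks the site on the endoplasmic reticulum where autophagosomes form, read 8.52, 9.16, 8.7 and 9.66 TPM in SOD1-WT and 35.6, 30.4, 32.1 and 31.1 in SOD1-K123R (log2 fold change 1.73, SE 0.09, adjusted p 5.19e-09). Atg14, which brings the lipid kinase complex to that site, read 4.3, 4.63, 3.48 and 3.76 TPM and 10.1, 9.91, 11.4 and 10.1 (log2 fold change 1.18, SE 0.12). Ulk1, the kinase at the head of the pathway, read 8.97, 9.46, 7.85 and 9.64 TPM and 20.4, 18.6, 17.4 and 18.7. For each of these 3 the lowest SOD1-K123R library lay above the highest SOD1-WT library. Atg101, a subunit of the ULK1 complex, rose from 35.8 ± 5.25 to 63.5 ± 2.75 TPM. Ambra1, which binds Beclin 1, rose from 14.2 ± 1.09 to 24.7 ± 0.872 TPM, and Atg2b, which transfers lipid into the growing membrane, from 5.5 ± 0.518 to 10.0 ± 0.772 TPM. Rubcnl, an activator of the lipid kinase in autophagosome maturation, stayed below the filter, at 0.14, 0.40, 0.32 and 0.31 TPM in SOD1-WT and 0.41, 0.59, 0.36 and 0.64 in SOD1-K123R, with overlapping groups.

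All 3 members of ATG8 and ATG12 conjugation rose. Gabarapl1, an ATG8 protein, read 85.8, 92, 84.6 and 103 TPM in SOD1-WT and 184, 199, 183 and 209 in SOD1-K123R (log2 fold change 1.08, SE 0.09, adjusted p 1.36e-07). Atg12, the ubiquitin-like protein that is joined to Atg5, read 14.8, 17.2, 21.7 and 18.5 TPM and 45.4, 48.2, 39.4 and 34.9 (log2 fold change 1.18, SE 0.13). Atg16l2, a relative of the scaffold of that conjugate, rose by a log2 fold change of 0.79. Atg10, the enzyme that attaches Atg12, holds no matching term and went the other way, from 3.92 ± 0.815 to 0.973 ± 0.242 TPM (log2 fold change -1.31). A conjugated protein and its conjugating enzyme were thus higher and lower in the same libraries.

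Of 5 cargo receptor members, 4 rose and 1 fell. Sqstm1, which encodes p62, the receptor for ubiquitinated cargo, read 494, 448, 429 and 428 TPM in SOD1-WT and 825, 850.1, 785 and 891 in SOD1-K123R (log2 fold change 0.90, SE 0.08). After quantile normalization its log2 fold change was 0.39 (adjusted p 0.00115), and after median-of-ratios scaling 1.38. Nbr1, a receptor related in domain structure, rose from 67.2 ± 5.82 to 127 ± 10.8 TPM, and Tollip, a ubiquitin-binding adaptor, from 30.9 ± 1.11 to 63.2 ± 2.51 TPM. Bag3, a co-chaperone that hands damaged proteins to autophagy, rose less, by a log2 fold change of 0.57 (SE 0.09). Clec16a, an endosomal protein that regulates mitophagy, fell from 10.8 ± 0.721 to 4.44 ± 0.665 TPM. Nipsnap2, a mitochondrial protein that recruits receptors to damaged mitochondria and holds no matching term, fell from 39.3 ± 3.72 to 12 ± 1.13 TPM. Sqstm1, Nbr1, Tollip and Bag3 were thus higher, and Clec16a and Nipsnap2 were lower. Of 39 receptor genes listed, only these 5 members and 1 other gene were in the table.

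**Figure D3:**
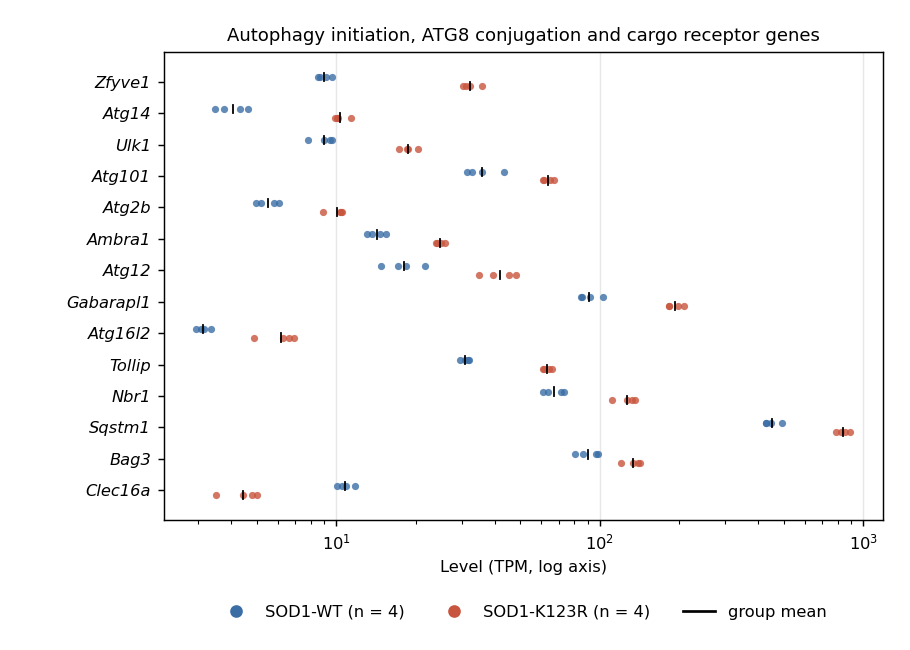
Level (TPM, horizontal log axis) of the 14 tested members of the initiation, conjugation and cargo receptor roles; points are libraries (4 per group) and vertical ticks are group means. SOD1-K123R libraries lie to the right of all SOD1-WT libraries for 13 genes and to the left for Clec16a (10.8 to 4.44 TPM).

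Of 7 members in fusion and trafficking, 5 fell and 2 rose. Snap29, a SNARE protein that joins the autophagosome to the lysosome, read 9.72, 10.7, 13.8 and 12.2 TPM in SOD1-WT and 3.57, 3.38, 2.98 and 3.92 in SOD1-K123R (log2 fold change -1.49, SE 0.13, adjusted p 2.57e-07). Stx17, the SNARE on the autophagosome that pairs with it, read 2.97, 3.24, 3.98 and 3.63 TPM and 1.34, 1.81, 1.07 and 1.33 (log2 fold change -0.90, SE 0.13, and -0.57 after median-of-ratios scaling). Both SNARE genes of this fusion step that were in the table were lower. Snapin, a SNARE-binding protein that links endosomes and lysosomes to motors, read 27.1, 26.9, 27.7 and 24.7 TPM and 8.87, 10.2, 9.84 and 8.62 (log2 fold change -1.41, SE 0.10). Tgfbrap1, a subunit of the endosomal tethering complex CORVET, fell from 7.66 ± 0.554 to 2.8 ± 0.701 TPM, and Rilp, an effector of the late endosomal GTPase Rab7, from 2.92 ± 0.92 to 0.733 ± 0.234 TPM. The 2 that rose were Rab33b, a GTPase that binds the conjugation scaffold Atg16l1 (from 8.02 ± 0.92 to 19.1 ± 2.03 TPM), and Hps6, of a complex for lysosome-related organelles (log2 fold change 0.56). Of 4 trafficking genes without a matching term, Stam, Rab9a and Gga2 rose and Lrba fell, so the lower levels did not extend to all genes of endosomal sorting.

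Of 8 members in the lysosomal membrane, 4 rose and 4 fell. Tmem175, a potassium and proton channel that sets lysosomal pH, read 17.8, 18.2, 16.9 and 17.1 TPM in SOD1-WT and 4.06, 3.91, 3.09 and 3.57 in SOD1-K123R (log2 fold change -1.99, SE 0.11, adjusted p 5.19e-09). Atp13a2, a polyamine transporter, read 16.4, 15.3, 13.1 and 17.4 TPM and 4.27, 4.37, 4.8 and 5.58 (log2 fold change -1.52, SE 0.12). Pip4p2, a phosphoinositide phosphatase, fell from 19.2 ± 2.15 to 8.22 ± 1.14 TPM, and Clcn3, a chloride and proton exchanger, from 7.49 ± 1.3 to 3.87 ± 0.221 TPM. Among those that fell were thus 2 genes of ion transport that bear on acidity.

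Cd68, a heavily glycosylated lysosomal membrane protein, read 7.16, 5.44, 7.94 and 7.02 TPM and 28.2, 23.1, 22.8 and 29.8 (log2 fold change 1.77, SE 0.13). Cd68 is also a macrophage marker. Of 17 macrophage and leukocyte markers listed, 2 were in the table, and their summed level was 5.44 to 8.04 TPM in SOD1-WT and 23.4 to 30.9 TPM in SOD1-K123R, nearly all of it Cd68. The other, Lyz2, which is also a lysosomal enzyme, was listed at 0 in SOD1-WT replicates 1, 2 and 4 and at 0.10 TPM in replicate 3, and read 0.83, 0.99, 0.59 and 1.08 TPM in SOD1-K123R. The part of such cells in these results was not tested. Cd63, a tetraspanin, rose from 1694 ± 96 to 2387 ± 149.8 TPM, a call that ended after quantile normalization (log2 fold change -0.06, adjusted p 0.456). Abca5, a lipid transporter, and Mcoln3, a cation channel, rose from low levels, by log2 fold changes of 1.15 and 0.75. The proton pump was represented by few genes: Tcirg1, its a3 subunit, rose from 23.2 ± 1.73 to 54.7 ± 4.88 TPM, and Atp6v0b, without a matching term, from 206 ± 17.7 to 305 ± 23.2 TPM. Atp6v0a4, an a subunit without a matching term and below the filter on low values, read 0.17, 0.19, 0.15 and 0.16 TPM in SOD1-WT and 0.12, 0.03, 0.03 and 0.08 in SOD1-K123R. Clcn7, the main chloride and proton exchanger of lysosomes and also without a matching term, rose from 18.3 ± 0.427 to 32.8 ± 1.67 TPM. Genes that bear on acidity thus moved both ways. Tcirg1 and Clcn7 are abundant in osteoclasts, and of 10 osteoclast markers listed 2 were in the table, with a summed level of 1023.1 to 1418.1 TPM in SOD1-WT and 3509.7 to 4035.7 in SOD1-K123R, nearly all of it the protease gene Mmp9. Their part in these results was not tested.

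Of 8 lysosomal enzyme members, 6 rose and 2 fell. Ctsb, a cysteine protease and the most abundant enzyme here, read 1226, 1225, 1254 and 1212 TPM in SOD1-WT and 2109, 1844, 1986 and 2089 in SOD1-K123R (log2 fold change 0.70, SE 0.08, adjusted p 1.93e-06). Ctsd, the main aspartic protease, read 457, 424, 357 and 421 TPM and 729, 634, 706 and 763 (log2 fold change 0.77, SE 0.09). Smpd1, acid sphingomyelinase, rose from 229 ± 13.6 to 380.1 ± 25.2 TPM, Ctsa, a carboxypeptidase, from 322 ± 13.3 to 469 ± 14.1 TPM and Ctsf, a cysteine protease, from 66.3 ± 4.86 to 92.7 ± 8.04 TPM. The size of these 5 changes depended on the scaling. After quantile normalization the calls of Ctsb (log2 fold change 0.13, adjusted p 0.206) and Ctsa (0.14, adjusted p 0.109) ended, and Ctsd was at 0.32, Smpd1 at 0.38 and Ctsf at 0.32. After median-of-ratios scaling Ctsb was at 1.19, Ctsd at 1.26, Smpd1 at 1.21, Ctsa at 1.02 and Ctsf at 0.95. Pla2g15, a lysosomal phospholipase, rose from 13.6 ± 0.932 to 30.5 ± 3.75 TPM. Plbd2, a phospholipase B-like protein, went against them, with 199, 188, 156 and 189 TPM in SOD1-WT and 46.9, 52.5, 49.3 and 65.2 in SOD1-K123R (log2 fold change -1.76, SE 0.11). Acp2, lysosomal acid phosphatase, fell from 20.8 ± 1.71 to 7.76 ± 1.01 TPM. Of 2 tested enzymes and carriers without a matching term, Npc2, which carries cholesterol in the lysosome, rose from 253 ± 25.5 to 414 ± 24.3 TPM and Hexd, a hexosaminidase, fell from 10.7 ± 1.29 to 3.08 ± 0.436 TPM.

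**Figure D4:**
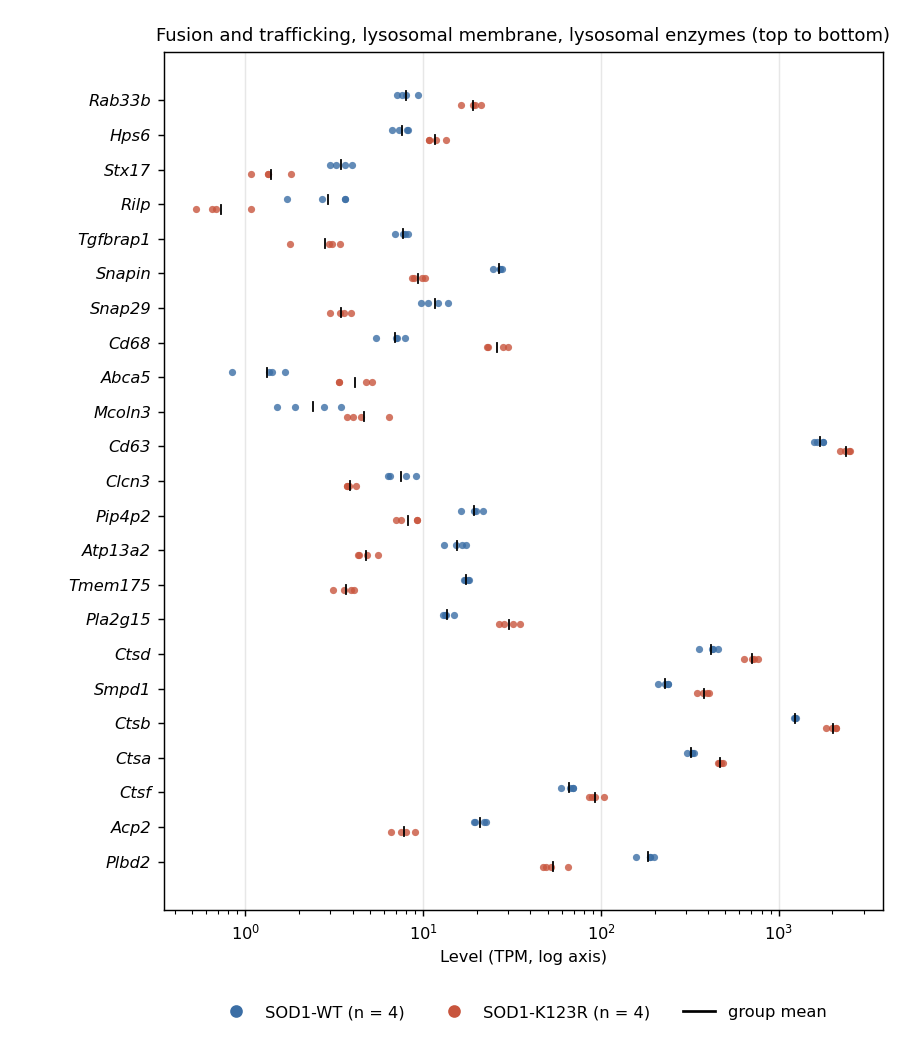
Level (TPM, horizontal log axis) of the 23 members of fusion and trafficking (top 7 genes), lysosomal membrane (next 8) and lysosomal enzymes (last 8), each ordered by log2 fold change; points are libraries (4 per group) and vertical ticks are group means. Fusion genes below Hps6 and the last 4 membrane genes lie to the left in SOD1-K123R, and the enzymes except Acp2 and Plbd2 to the right.

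Of 11 other regulators tested, 6 rose and 5 fell. Herc1, a giant ubiquitin ligase, read 7.27, 10.3, 12 and 9.93 TPM in SOD1-WT and 3.49, 3.58, 2.3 and 2.68 in SOD1-K123R (log2 fold change -1.43, SE 0.16). Trim65, another ubiquitin ligase, read 9.59, 9.03, 8.34 and 8.21 TPM and 2.71, 2.66, 2.22 and 3.31 (log2 fold change -1.40, SE 0.12). Usp13, a deubiquitinase that acts on Beclin 1, Lrrk2, a kinase of the endolysosomal system, and Irgm, an immunity GTPase with similar copies that could share reads, were the others that fell, by log2 fold changes of -1.10, -1.04 and -0.80. Mcl1, an inhibitor of cell death that binds Beclin 1, rose from 145 ± 7.14 to 242 ± 6.65 TPM, and Bcl2l11, which encodes the death promoter BIM, from 14.1 ± 1.64 to 27.5 ± 3.46 TPM. Pikfyve, the lipid kinase of late endosomes, rose (log2 fold change 1.17), whereas Fig4, a phosphatase of the same complex without a matching term, fell (-1.22). Qsox1, Bcl2 and Fez1 rose by log2 fold changes of 0.68, 0.71 and 0.46. Both ubiquitin ligases of this role and the deubiquitinase were lower, and its 3 BCL2 family members, whose known actions on cell death are opposed, were higher. Of 13 tested regulators that were not members, 8 rose and 5 fell. Among those that rose, Plk2 and Plk3 hold an autophagy term but were left out by the rule.

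Of 39 members tested that had no listed role, 23 rose, 14 fell and 2 did not pass. Depp1, a FOXO target that acts on peroxisomes and autophagy, read 5.09, 4.61, 5.87 and 6.38 TPM in SOD1-WT and 47.1, 39.5, 38 and 52.3 in SOD1-K123R (log2 fold change 2.80, SE 0.13, adjusted p 1.53e-09). Bbc3, which encodes the death promoter PUMA, read 4.72, 4.23, 4.84 and 5.1 TPM and 14.3, 15.4, 17.6 and 13.2. Both carry a lysosome or autophagy term but are better known for other functions. Rnf185, a ubiquitin ligase of the endoplasmic reticulum, rose from 17.6 ± 0.467 to 45.3 ± 3.25 TPM. Osbpl7, an oxysterol-binding protein, rose from 2.97 ± 0.356 to 8.75 ± 0.432 TPM and Trib3, a stress-induced pseudokinase, from 7.04 ± 1.58 to 18.4 ± 2.44 TPM. Sec22b, a SNARE of the endoplasmic reticulum, read 64.3, 69.3, 66.4 and 67.9 TPM and 142, 144, 139 and 134, a narrow range in each group. Grn, which encodes progranulin, a lysosomal growth factor precursor, rose from 299 ± 13.4 to 436 ± 26.6 TPM, a call that ended after quantile normalization (log2 fold change 0.12, adjusted p 0.179).

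Among those that fell, Il1b, an inflammatory cytokine whose GO terms include lysosome, read 64.5, 77.2, 98.3 and 77.8 TPM in SOD1-WT and 24.2, 14.8, 30.4 and 12.1 in SOD1-K123R (log2 fold change -1.98, SE 0.23). Wdr6, a tRNA methylation factor, fell from 58.4 ± 4.3 to 22.6 ± 4.61 TPM, Cisd2, an iron-sulfur protein of the endoplasmic reticulum and mitochondria, from 28.2 ± 3.6 to 10.6 ± 1.31 TPM, and Synpo2, an actin-binding partner of Bag3, from 9.26 ± 0.657 to 3.24 ± 0.720 TPM. Cln6, a gene of neuronal ceroid lipofuscinosis, a group of lysosomal storage diseases, read 13.8, 12.1, 13.7 and 14.3 TPM and 5.43, 5.93, 4.65 and 6.63 (log2 fold change -1.13). Lars1, the leucyl-tRNA synthetase that also senses leucine for mTORC1, fell from 41.1 ± 8.96 to 18.9 ± 2.41 TPM.

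Vps13a, a lipid transfer protein, passed with overlapping groups (log2 fold change -0.69), and its call ended after median-of-ratios scaling (-0.35, adjusted p 0.0637) and after quantile normalization (-0.38, adjusted p 0.0650). The 2 that did not pass were Peg3, an imprinted zinc finger gene (log2 fold change 0.41, adjusted p 0.0517), and a gene without a name that the table describes as an HSPA8 copy (0.17, adjusted p 0.249). Both passed as higher after median-of-ratios scaling (adjusted p 0.000138 and 0.00108). Peg3 read 4.66, 6.92, 6.51 and 5.6 TPM and 11.7, 9.47, 6.19 and 6.28, and passed without SOD1-WT replicate 2 (adjusted p 0.0432) or 3 (0.0494), and without SOD1-K123R replicate 3 (0.0223) or 4 (0.0225).

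By kind of term, of 46 tested members with autophagy terms only, 33 rose and 12 fell. Of 36 with lysosome terms only, 22 rose and 14 fell, and of 15 with both, 8 rose and 6 fell. By single GO terms, 12 of 14 genes of autophagosome assembly rose and 2 fell, whereas both tested genes of autophagosome maturation, Snapin and Stx17, fell, the other, Rubcnl, being below the filter. Of 6 genes of positive regulation of autophagy 5 rose and 1, Trim65, fell, and of 6 genes of negative regulation 3 rose and 3 fell. Of 17 genes of the lysosomal membrane 11 rose and 6 fell. Of all genes tested, 44.6% were higher and 51.1% lower, and many of these lists are small. The single terms share genes and were chosen after values were seen, so the counts are a description. With a mean over all libraries of 50 TPM or more, 21 of 22 rose and Plbd2 alone fell, where 64.6% of all 415 genes at that level were higher. After quantile normalization 14 of these 22 rose (63.6%), 7 did not pass and 1 fell, against 54.9% higher of all genes at that level. Below 50 TPM, 42 of 75 members rose (56.0%) against 41.3% of all genes at that level. Such abundant genes made up 22.7% of members tested and 14.4% of all genes tested.

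The remaining 12 members had a mean under 1 TPM and were not tested. Rubcnl, Casp1, an inflammatory caspase, and 3 genes without a name or with a locus name had overlapping groups. Of the rest, Clcn4, a chloride and proton exchanger, Prkaa2, a catalytic subunit of AMPK, and a gene without a name were lower in every SOD1-K123R library, while Doc2a, a calcium sensor of vesicle fusion, Sorl1, a sorting receptor, and 2 more were higher. Prkaa2 read 0.11, 0.10, 0.15 and 0.13 TPM in SOD1-WT and 0, 0.04, 0 and 0.04 in SOD1-K123R. At such levels no fold is given.

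Markers of the labelled cell type were few in the table. Of 19 nucleus pulposus markers listed, 7 were present, with a summed level of 24.4 to 29.3 TPM in SOD1-WT and 32.1 to 49.3 TPM in SOD1-K123R. Of the 6 tested, Cd24, Sox9 and Car12 rose and Car3, Cdh2 and Acan fell, and Col2a1 was listed at 0 in all SOD1-WT libraries. Annulus and fibroblast markers, 4 of 9 in the table, summed to 121.5 to 148.0 TPM in SOD1-WT and 48.8 to 58.4 TPM in SOD1-K123R, led by the collagen gene Col3a1. Of 8 endothelial markers Pecam1 alone was present, at no more than 0.46 TPM, and none of 5 erythroid markers was analysed here. The nucleus pulposus sum was higher in SOD1-K123R through Cd24, which rose from 10.1 ± 1.43 to 31.2 ± 6.44 TPM. The other tested markers of that list moved both ways, and the annulus and fibroblast sum was lower. The part of cell types in the results above was not tested.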

How the data were processed

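RNA sequencing values of 8 libraries, 4 per group, were taken from 1 table deposited by the authors, in TPM per gene; its name points to RSEM, and the submitters' processing notes name DESeq2 with no role stated. The aligner, the build and the annotation were not given in the sources used here. TPM keeps no depth, so no counting error could be given, and a count model was not used. Columns were matched to samples by their heads.

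TPM were tested as log2(TPM + 1) with limma 3.58.1 (R 4.3.3) between the groups, for genes whose mean reached 1 TPM, with Benjamini-Hochberg adjustment over all of them. The script was tested on simulated data. Members and 9 role lists of the pathway were chosen with earlier results of these data known. The named genes were the 12 largest changes in each direction (passed, groups apart, at least 5 TPM in the higher group), all initiation, conjugation and receptor members, and up to 4 with the smallest adjusted p in each other role; further genes were chosen after their values were seen, and a few items are not reported here. Alternatives were another pseudocount (0.1), no filter or a mean of 5 TPM, median-of-ratios scaling, quantile normalization, a replicate block, other member rules and leaving out each library. Promoter sequences came from RefSeq (GRCr8); the files name no build, so genes were matched by symbol.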

Additional observations from a re-analysis of the deposited data

Results flagged for a closer look

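In 4 of 92 groups (46 named genes, 2 groups each), 1 library lay far from the other 3, which Dixon's criterion gives by chance in about 1 of 20 groups. Mcl1 read 134.52 TPM in SOD1-WT replicate 4, with the others at 147.34 to 149.37. In SOD1-K123R replicate 3, Synpo2 read 2.16 TPM (others 3.54 to 3.65), Atg14 read 11.39 TPM (others 9.91 to 10.14) and Atg2b read 8.88 TPM (others 10.36 to 10.48). For each of these genes the groups did not overlap.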

How the results depend on the processing

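The read depth behind these TPM values is unknown, which limits what can be said of the low ones. The 63 members that rose and 32 that fell became 57 and 31 after quantile normalization and 66 and 31 after median-of-ratios scaling. Over the whole table, 2765 genes passed, and 1845 with a mean of at least 5 TPM and 3780 without the filter, where fewer and more genes were tested. Without each library in turn, 62 to 65 members rose, 32 fell, 94 to 95 did not overlap and 2715 to 2769 genes of the table passed. With autophagy terms alone as the rule, 41 members rose, 18 fell and 58 did not overlap; with lysosome terms alone these were 30, 20 and 49, since fewer genes qualify. No member was called in the opposite direction under any setting run. Same-numbered deviations correlated at -0.35, 0.016, -0.204 and 0.0536, and differently numbered ones at -0.4 to 0.444. No pairing by replicate number was seen, but so few libraries cannot exclude it. Between the main scaling and median-of-ratios scaling, log2 fold changes of 27 members that rose were over 1.5 times larger and of 14 that fell over 1.5 times smaller; after quantile normalization 11 that rose and 4 that fell were smaller and 1 was larger. With a pseudocount of 0.1, 4 that rose and 2 that fell had larger changes. With a replicate block, 63 members rose and 32 fell, and 2743 genes of the table passed. Over the 97 members tested, 8 calls ended after quantile normalization, among them those of Ctsb, Ctsa, Cd63, Grn and Vps13a. After median-of-ratios scaling 1 ended, that of Vps13a. Of the 45 genes picked by the naming rule and followed under the alternatives, the call of Ctsb alone ended, after quantile normalization.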
